A study of Mus musculus with 8 samples.

Results

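Nuclear receptors and their coactivators were followed in regenerating mouse liver after knockdown of Tbl1xr1, a subunit of the NCoR and SMRT corepressor complexes that unliganded receptors recruit. The members were taken by name: 32 nuclear receptors and 6 coactivators, 38 of the 55401 genes in the tables. Total RNA from whole liver was sequenced as 8 libraries, 4 in each of 2 groups. In both groups C57BL/6J mice received a short hairpin RNA in an adeno-associated virus directed at hepatocytes 4 weeks before partial hepatectomy, the removal of most of the liver, and the regenerating tissue was collected 2 days later, on day 2. The hairpin was against Tbl1xr1 in the shTbl1xr1 group and was a control in the shNC group. Other liver cells are not the target of this virus, and whole liver RNA holds transcripts of all of them. Whether every library comes from its own animal is not said in the labels, and p-values here cover the spread between libraries, part of which may be technical.

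Nuclear receptors are transcription factors whose ligand-binding domain senses a small lipophilic molecule, such as a bile acid, an oxysterol, a fatty acid, a retinoid or a steroid. Many bind DNA as a pair with a retinoid X receptor (RXR), each partner on a copy of a hexamer close to AGGTCA. Without an activating ligand, several of them hold a corepressor complex that contains Tbl1xr1. With a ligand they bind coactivators, among them the p160 proteins, which bring in histone acetyltransferases, and Med1, which joins them to the Mediator complex and RNA polymerase II. In liver this family is known for its control of bile acid, lipid, glucose and drug metabolism.

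Promoters are printed for the obligate partner Rxra, for the bile acid receptor Nr1h4 and for Rxrg, because each holds the hexamer that RXR partners bind. They are 250 bases upstream of a RefSeq transcription start on GRCm38.p6, written 5′ to 3′ on the gene's strand. Capitals mark AGGTCA or its complement on the other strand, TGACCT. Rxra lies upstream of a start on the plus strand at chr2:27709042-27709291, Nr1h4 on the minus strand at chr10:89506659-89506908 and Rxrg on the plus strand at chr1:167618015-167618264. Each window lies inside its annotated gene, before an internal start. The genes' outermost 5′ ends are at 27676440 for Rxra, 89533585 for Nr1h4 and 167598384 for Rxrg.
Rxra: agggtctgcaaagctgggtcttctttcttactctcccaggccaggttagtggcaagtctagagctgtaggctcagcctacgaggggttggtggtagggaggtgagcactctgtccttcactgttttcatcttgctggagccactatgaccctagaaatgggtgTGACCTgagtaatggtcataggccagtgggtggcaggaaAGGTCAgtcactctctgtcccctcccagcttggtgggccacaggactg
Nr1h4: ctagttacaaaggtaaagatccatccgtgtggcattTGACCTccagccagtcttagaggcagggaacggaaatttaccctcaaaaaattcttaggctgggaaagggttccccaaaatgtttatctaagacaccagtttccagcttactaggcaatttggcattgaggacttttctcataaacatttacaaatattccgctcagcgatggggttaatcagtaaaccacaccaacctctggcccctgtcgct
Rxrg: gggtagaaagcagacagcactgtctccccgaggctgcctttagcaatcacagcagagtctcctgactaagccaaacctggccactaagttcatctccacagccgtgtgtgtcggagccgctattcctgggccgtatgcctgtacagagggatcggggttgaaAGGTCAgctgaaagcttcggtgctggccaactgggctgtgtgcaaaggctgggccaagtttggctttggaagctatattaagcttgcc
The first bases of the capitals lie at -87 and -48 from the start in Rxra, at -214 in Nr1h4 and at -88 in Rxrg. RefSeq promoters were matched for 33 members, with 50 starts in all. AGGTCA on either strand was in 8 of those 50 windows (16%), against 14% of 32851 promoters of the same length. At least 2 copies were in 2 of the 50 (4%), against 1.36% of all. A match of letters is a description of these windows and not a bound site.

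The libraries have to be described before the members, because they stand apart within a group. Libraries shTbl1xr1 1 and 2 held 10895508 and 10728583 expected counts, and shTbl1xr1 3 and 4 held 26976205 and 36720879, against 25811763 to 27537235 in the 4 shNC libraries. The share of mitochondrial transcripts was 11.3% and 14.8% in shTbl1xr1 1 and 2 and 4.52% and 6.26% in shTbl1xr1 3 and 4, against 4.96% to 7.34% in shNC. The first principal component held 59.25% of the variance and placed shTbl1xr1 1 and 2 at -85.96 and -86.41, with the other 6 libraries between 9.29 and 39.67. These are called the shallow pair below, and shTbl1xr1 3 and 4 the deeper pair.

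The targeted gene was low in every shTbl1xr1 library, but not equally. Tbl1xr1 (ENSMUSG00000027630.13; mm10 chromosome 3, 22076652 to 22216594) was at 2.38, 2.07, 9.24 and 15.9 CPM in shTbl1xr1 1 to 4. CPM are counts scaled to library size multiplied by a TMM factor. This factor was 0.734 and 0.675 in the shallow pair and 1.08 to 1.16 in the others. It is left out where library size alone is named below. In shNC 1 to 4 Tbl1xr1 was at 27.2, 35.9, 33.7 and 34.6 CPM. The shTbl1xr1 libraries thus held 7.24%, 6.31%, 28.1% and 48.5% of the shNC mean, and the groups did not overlap. The log2 fold change was -2.07 ± 0.54 (SE) with an adjusted p of 0.290 by edgeR's quasi-likelihood test, and a two-sided exact permutation test gave p = 0.0286, the smallest that 4 against 4 allows. DESeq2 gave an adjusted p of 0.00863.

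No member passed the test across all genes. Of the 38 members, 35 had enough counts to be tested among 13908 genes, and 0 of them reached an adjusted p of 0.05 by edgeR, where 0.0503% of all tested genes did. The smallest adjusted p among members was 0.391. At an unadjusted p under 0.05 there were 2 members, both higher in shTbl1xr1, against 11.6% of all tested genes in either direction and 7.90% in the higher direction. DESeq2 called 0 of the 35, where it called 1.81% of all genes. In 0 of the 35 members did all 4 shTbl1xr1 libraries lie beyond all 4 shNC libraries, a separation seen in 7.25% of tested genes. Log2 fold changes were positive for 15 members and negative for 20, from -0.74 to 1.03, with a median of -0.07 against 0.01 over all tested genes. Scaling by library size alone moved the median of all tested genes to -0.27, and 9 of the 15 positive members (Nr1h3, Nr1h2, Rxra, Rxrb, Nr3c2, Nr2f2, Nr2f6, Esrra and Esrrg) turned negative there. The median size of the members' changes was 0.25 on the log2 scale, against 0.28 over all tested genes. The 95% interval lay within a 2-fold change either way for 23 of the 35 members (65.7%), against 57.5% of all tested genes, so for the other 12 a 2-fold change lay inside the interval.

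**Figure D1:**
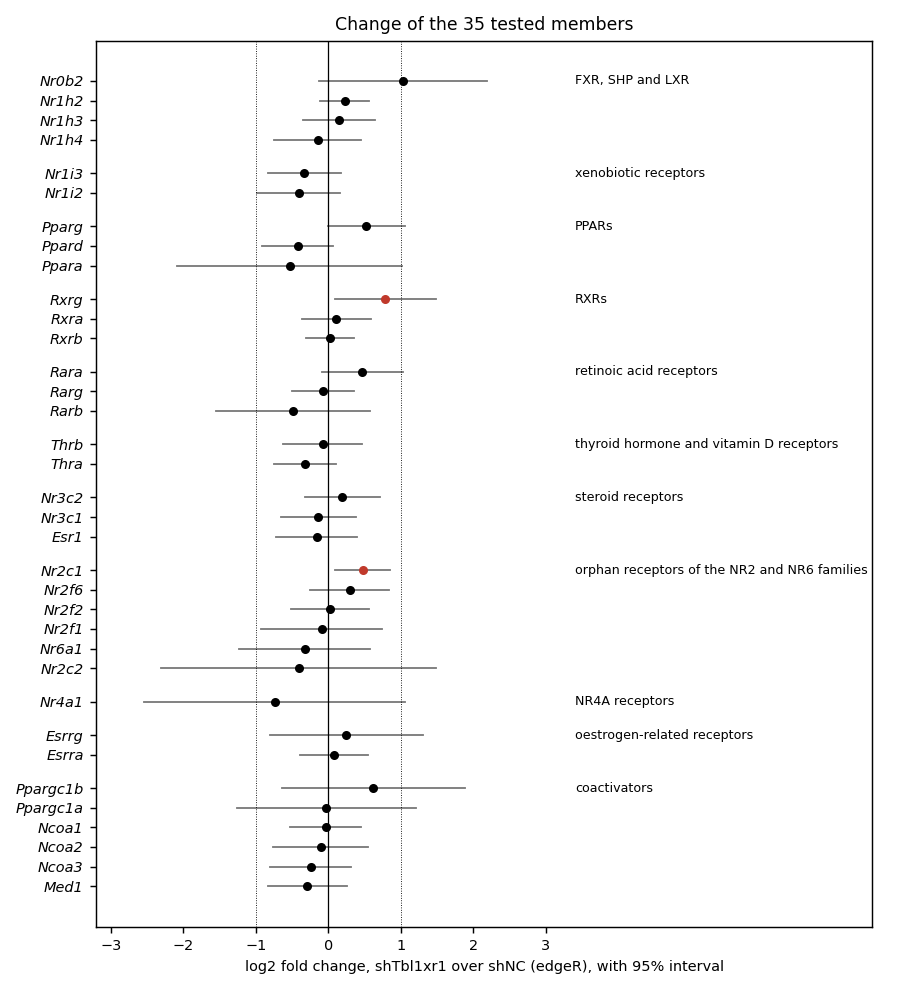
Log2 fold change of shTbl1xr1 over shNC for the 35 tested members, grouped by role, with bars for the 95% interval from edgeR's quasi-likelihood fit (n = 4 libraries each) and dotted lines at a 2-fold change. Red marks Nr2c1 and Rxrg, the members with an unadjusted p under 0.05, and no member reached an adjusted p of 0.05.

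Levels of different genes are compared here in TPM, which allows for transcript length and library size, and changes between groups in CPM. By mean TPM over the 8 libraries, 13 receptors were at 10 TPM or more, 14 between 1 and 10 TPM, and 5 under 1 TPM. The most abundant was Nr1h3 (LXR alpha), with 68.0 ± 12.3 TPM in shTbl1xr1 and 90.0 ± 13.6 TPM in shNC (SD, n = 4 each). Rxra came next with 62.0 ± 35.5 TPM in shTbl1xr1 and 79.7 ± 21.8 TPM in shNC, and then Nr2f6 with 52.1 ± 7.32 TPM in shTbl1xr1 and 63.9 ± 6.69 TPM in shNC. These neighbours in the order did not differ beyond their spread. Together they held 42.5% of the summed TPM of the 32 receptors. The constitutive androstane receptor Nr1i3 followed with 36.4 ± 21.6 TPM in shTbl1xr1 and 58.2 ± 5.92 TPM in shNC, and the farnesoid X receptor Nr1h4 with 28.7 ± 20.6 TPM in shTbl1xr1 and 41.2 ± 9.27 TPM in shNC. All 6 coactivators were below 10 TPM in mean, led by Ncoa2 with 5.05 ± 4.11 TPM in shTbl1xr1 and 6.55 ± 1.5 TPM in shNC. The summed TPM of the 32 receptors was 297 and 279 in the shallow pair and 479.7 and 624 in the deeper pair, against 499.5 to 659 in shNC. TPM is therefore used for the order of levels and for shares of a family within a library. Group means in TPM, where printed, are not read as changes between the groups.

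**Figure D2:**
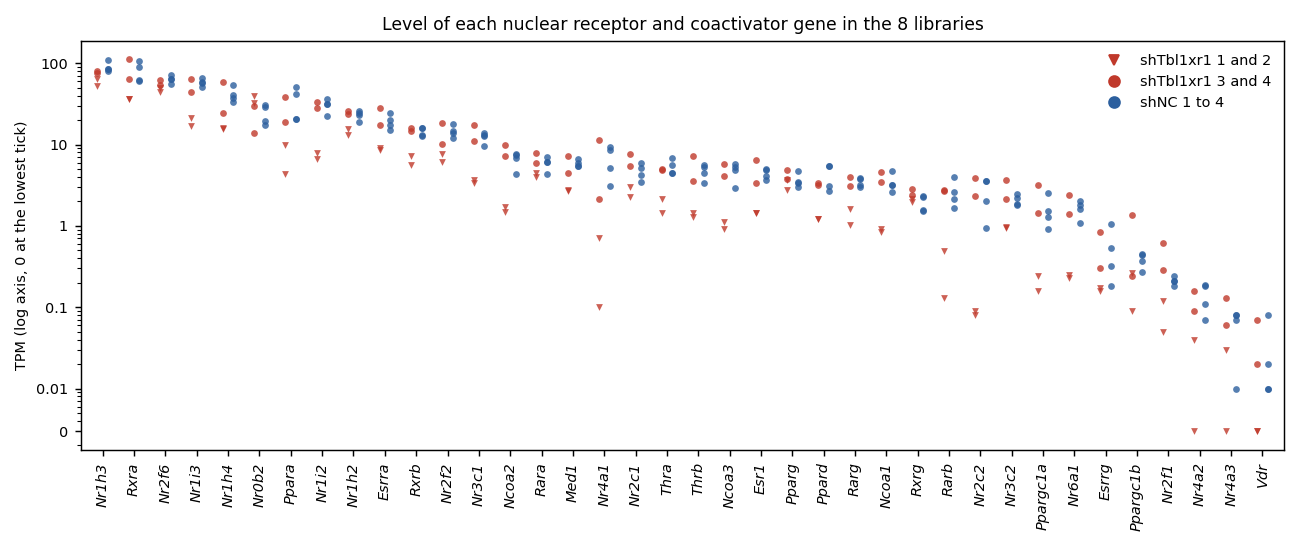
TPM of the 38 members in each library on a log axis, ordered by mean TPM, with shTbl1xr1 libraries left of shNC libraries and triangles for the shallow pair. Nr1h3, Rxra and Nr2f6 are the most abundant, and the libraries of both groups overlap for every tested member.

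Among the sensors of bile acids and oxysterols, Nr1h3, Nr1h2 and Nr0b2 were high in the shallow pair only on the TMM scale, and by library size alone this held for Nr0b2 only. Nr1h3 (ENSMUSG00000002108.10; chromosome 2, 91184061 to 91202834), which switches on cholesterol efflux and fatty acid synthesis, was at 155, 146, 91.3 and 86.6 CPM in shTbl1xr1 1 to 4, against 105, 103, 123 and 100.1 CPM in shNC 1 to 4. The shallow pair lay above every shNC library and the deeper pair below every one. Its log2 fold change was 0.15 ± 0.22 (SE, edgeR adjusted p = 0.780) over all 8 libraries and -0.28 over the deeper pair alone. By library size alone Nr1h3 was at 113 and 98.5 CPM in the shallow pair and 105 and 95.1 CPM in the deeper pair, against 114 to 143 CPM in shNC. Its paralogue Nr1h2 (LXR beta) was at 38.2, 34.2, 27.2 and 28.6 CPM in shTbl1xr1, against 25.6, 27.1, 29.1 and 27.2 CPM in shNC. Nr1h3 made 78.2% ± 2.82 of the LXR TPM in shTbl1xr1 and 79.7% ± 1.51 in shNC.

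Nr0b2 (SHP), an atypical receptor without a DNA-binding domain that the bile acid receptor induces, had the largest positive log2 fold change of the members, 1.03 ± 0.52 (SE, edgeR adjusted p = 0.443). It was at 46.6, 64.2, 19.6 and 9.42 CPM in shTbl1xr1, against 23.3, 13.6, 18.9 and 11.9 CPM in shNC. Only the shallow pair lay above the shNC libraries, and the log2 fold change over the deeper pair alone was -0.22. The bile acid receptor Nr1h4 itself was at 42.7, 49.4, 31.8 and 77.1 CPM in shTbl1xr1, against 60.1, 44.5, 69.0 and 49.3 CPM in shNC. The groups overlapped, but of the shTbl1xr1 values only 49.4 CPM lay within the shNC range. Those of 42.7 and 31.8 CPM lay below every shNC library, and that of 77.1 CPM above every one. Here and below, per-library values beyond those of Nr1h3, Rxra, Nr2f6, Rxrg and Nr2c1 were picked after their values were seen.

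The xenobiotic receptors, which switch on drug-metabolising enzymes, had negative log2 fold changes that did not pass, -0.33 for Nr1i3 and -0.41 for Nr1i2. Nr1i3 (CAR) was at 40.3, 63.5, 46.6 and 83.4 CPM in shTbl1xr1, against 71.4, 69.1, 72.1 and 81.4 CPM in shNC. Libraries shTbl1xr1 1 to 3 lay below all shNC libraries and shTbl1xr1 4 above them. Nr1i2 (PXR) was at 28.3, 27.8, 49.1 and 57.5 CPM in shTbl1xr1, against 45.0, 64.4, 52.9 and 54.7 CPM in shNC, with only the shallow pair below. The exons of Nr1i3 share 3304 bases with Tomm40l on the other strand, and the strand setting of the counts is not given in the sources used here.

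Among the fatty acid sensors of the PPAR family, Ppara split widely between the pairs and Ppard did not. Ppara, the hepatocyte receptor that drives fatty acid oxidation, was at 7.89, 5.39, 31.4 and 65.0 CPM in shTbl1xr1, against 22.1, 25.4, 62.2 and 52.5 CPM in shNC. The shallow pair lay far below all other libraries, while shTbl1xr1 4 was the highest of the 8. Its log2 fold change was -0.53 ± 0.69 (SE, edgeR adjusted p = 0.745). The estimated length of Ppara, a mean over its isoforms weighted by their abundance, also differed, at 724 and 927 bases in the shallow pair and 2460 and 2498 in the deeper pair, against 1469 to 1924 bases in shNC. Pparg, the lipid-storage receptor, was at 9.51, 7.73, 6.31 and 4.93 CPM in shTbl1xr1, against 4.41, 4.38, 4.75 and 5.99 CPM in shNC, so 3 of the 4 shTbl1xr1 libraries lay above every shNC library (log2 fold change 0.53, edgeR adjusted p = 0.426). Pparg made 24.6%, 33.5%, 17.9% and 8.21% of the PPAR TPM in shTbl1xr1 1 to 4, against 5.79% to 11.5% in shNC. The share follows Ppara as well as Pparg. In TPM, which was lower for the receptors as a whole in the shallow pair, Pparg averaged 3.75 ± 0.840 in shTbl1xr1 and 3.62 ± 0.744 in shNC. In CPM it averaged 7.12 ± 1.96 in shTbl1xr1 and 4.88 ± 0.759 in shNC, and by library size alone its log2 fold change was 0.18. Ppard, the most widely expressed of the family, averaged 6.16 ± 0.308 CPM in shTbl1xr1 and 8.27 ± 2.12 CPM in shNC.

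Of the RXRs, the common partners, Rxra held most of the transcripts in both groups. Rxra (ENSMUSG00000015846.15; chromosome 2, 27676440 to 27762957) was at 264, 302, 219.6 and 366 CPM in shTbl1xr1, against 239, 215, 318 and 293 CPM in shNC, with a log2 fold change of 0.11 ± 0.22 (SE, edgeR adjusted p = 0.83). Only shTbl1xr1 4 lay outside the shNC range. Rxra made 81.6% ± 3.13 of the RXR TPM in shTbl1xr1 and 82.5% ± 2.40 in shNC. Rxrg (ENSMUSG00000015843.10; chromosome 1, 167598384 to 167639623), the scarcest RXR, was at 4.63, 4.83, 2.48 and 2.98 CPM in shTbl1xr1, against 2.73, 1.70, 1.56 and 2.45 CPM in shNC. Of its shTbl1xr1 libraries, 3 lay above every shNC library and 1 within their range. Its log2 fold change was 0.79 ± 0.31 (SE), with an unadjusted p of 0.031 and an adjusted p of 0.408 by edgeR, and it averaged 3.73 ± 1.18 CPM in shTbl1xr1 and 2.11 ± 0.569 CPM in shNC. Rxrb averaged 21.9 ± 1.62 CPM in shTbl1xr1 and 21.5 ± 2.72 CPM in shNC.

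Receptors for retinoic acid and thyroid hormone gave mixed values, from -0.49 ± 0.47 (SE) for Rarb to 0.47 ± 0.25 (SE) for Rara on the log2 scale, and none passed. Rara averaged 16.9 ± 4.08 CPM in shTbl1xr1 and 12.1 ± 3.22 CPM in shNC, with the shallow pair highest. Rarb, whose gene is itself a retinoic acid target, was at 2.13, 0.690, 4.41 and 4.29 CPM in shTbl1xr1, against 3.34, 4.34, 2.92 and 6.47 CPM in shNC, and its exons share 1793 bases with Top2b on the other strand. Rarg averaged 6.12 ± 1.21 CPM in shTbl1xr1 and 6.48 ± 0.422 CPM in shNC. Of the thyroid hormone receptors, Thrb, known as the main hepatic form, averaged 15.7 ± 4.95 CPM in shTbl1xr1 and 16.7 ± 3.28 CPM in shNC. Thra averaged 6.75 ± 1.01 CPM in shTbl1xr1 and 8.48 ± 1.36 CPM in shNC. In TPM, which allows for length, Thra made 52.6% ± 9.41 of the sum of Thra and Thrb in shTbl1xr1 and 53.4% ± 3.01 in shNC. The vitamin D receptor Vdr held 0, 0, 7 and 2 counts in shTbl1xr1, against 1, 1, 2 and 2 counts in shNC, and was not tested. A count of 0 in the shallow pair allows up to 0.376 and 0.414 CPM, above the 0.0327 to 0.0681 CPM of the shNC libraries, so a difference was not detectable at this depth.

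Among steroid receptors, shTbl1xr1 4 was the highest library for all 3. The glucocorticoid receptor Nr3c1 was at 31.4, 39.4, 41.6 and 68.4 CPM in shTbl1xr1, against 48.9, 49.3, 46.1 and 55.0 CPM in shNC. The oestrogen receptor Esr1 was at 12.4, 13.9, 14.6 and 27.4 CPM in shTbl1xr1, against 18.2, 22.3, 18.6 and 18.1 CPM in shNC. For both genes shTbl1xr1 1 to 3 lay below every shNC library and shTbl1xr1 4 above every one, and the log2 fold changes were -0.14 for Nr3c1 and -0.16 for Esr1. The mineralocorticoid receptor Nr3c2 averaged 9.47 ± 2.77 CPM in shTbl1xr1 and 8.32 ± 1.24 CPM in shNC.

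Of the orphan receptors, which have no agreed natural ligand, Nr2c1 had the smallest p of the members. Nr2c1 (TR2; ENSMUSG00000005897.14; chromosome 10, 94148023 to 94197211) was at 15.4, 13.9, 12.3 and 17.1 CPM in shTbl1xr1, against 9.51, 9.73, 10.5 and 12.6 CPM in shNC. All but shTbl1xr1 3 lay above the shNC libraries. The log2 fold change was 0.47 ± 0.17 (SE), with an unadjusted p of 0.0196 and an adjusted p of 0.391 by edgeR. On the log2 scale of these CPM the shallow pair differed from the shNC mean by 0.46 and the deeper pair by 0.45. The latter joins 0.22 in shTbl1xr1 3 and 0.68 in shTbl1xr1 4. By library size alone the shallow pair was at 11.3 and 9.41 CPM, against 10.3 to 14.3 CPM in shNC. The deeper pair was then at 14.2 and 18.8 CPM, and the log2 fold change of Nr2c1 was 0.18. Its partner Nr2c2 (TR4) was at 0.626, 0.414, 10.3 and 17.3 CPM in shTbl1xr1, against 4.41, 8.79, 13.4 and 13.9 CPM in shNC. In counts that is 5, 3, 320 and 699 in shTbl1xr1, against 123, 269, 405 and 409 in shNC, and its log2 fold change was -0.41 ± 0.84 (SE, edgeR adjusted p = 0.845). Nr2c2 shares 4590 exon bases with Mrps25 on the other strand, the longest such overlap among members.

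Nr2f6 (ENSMUSG00000002393.14; chromosome 8, 71374123 to 71381960), a COUP-TF relative that mostly represses, followed the same split as Nr1h3. It was at 153, 147, 77.7 and 87.8 CPM in shTbl1xr1, against 103, 82.2, 99.7 and 94.3 CPM in shNC, with a log2 fold change of 0.29 ± 0.24 (SE, edgeR adjusted p = 0.595). The shallow pair lay above every shNC library, and shTbl1xr1 3 below every one, but by library size alone the shallow pair was at 112 and 99.3 CPM, against 91.4 to 116 CPM in shNC. It shares 1622 exon bases with Ocel1 on the other strand. Nr2f2 averaged 23.9 ± 5.80 CPM in shTbl1xr1 and 23.5 ± 6.27 CPM in shNC, Nr2f1 0.430 ± 0.175 CPM in shTbl1xr1 and 0.493 ± 0.0584 CPM in shNC, and Nr6a1 4.26 ± 3.02 CPM in shTbl1xr1 and 5.58 ± 0.720 CPM in shNC.

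The NR4A receptors are immediate early genes that act without a known ligand. Nr4a1 had the largest negative log2 fold change of the members, -0.74 ± 0.80 (SE, edgeR adjusted p = 0.695). It was at 2.50, 0.414, 18.2 and 3.22 CPM in shTbl1xr1, against 15.8, 14.7, 8.03 and 4.46 CPM in shNC, so the highest of the 8 libraries was also an shTbl1xr1 one. Nr4a2 and Nr4a3 were not tested, with 0 to 14 counts in shTbl1xr1 and 1 to 11 in shNC. The oestrogen-related receptors, which drive mitochondrial genes together with the PGC-1 coactivators, averaged 30.4 ± 6.94 CPM in shTbl1xr1 and 28.8 ± 5.78 CPM in shNC for Esrra, and 1.5 ± 0.436 CPM in shTbl1xr1 and 1.28 ± 0.878 CPM in shNC for Esrrg.

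All 6 coactivators were tested and none passed, with 1 positive and 5 negative log2 fold changes and a median of -0.07. Ncoa2, a p160 coactivator, was at 18.3, 24.0, 37.1 and 49.6 CPM in shTbl1xr1, against 27.6, 34.4, 37.1 and 40.8 CPM in shNC. Ncoa3 averaged 17.5 ± 6.24 CPM in shTbl1xr1 and 20.9 ± 2.36 CPM in shNC, and Ncoa1 13.1 ± 3.58 CPM in shTbl1xr1 and 13.5 ± 1.98 CPM in shNC. Ppargc1a (PGC-1 alpha), which is induced in fasting and drives gluconeogenic and mitochondrial genes, was at 2.38, 1.80, 5.64 and 13.8 CPM in shTbl1xr1, against 4.56, 5.06, 9.29 and 6.30 CPM in shNC. Ppargc1b had the positive value, 0.62, from 1.38, 0.552, 0.580 and 3.45 CPM in shTbl1xr1, against 1.29, 0.719, 1.13 and 0.954 CPM in shNC. The Mediator subunit Med1 was at 14.1, 15.3, 16.3 and 28.9 CPM in shTbl1xr1, against 19.9, 23.8, 27.0 and 21.2 CPM in shNC. The shallow pair lay lowest for Ncoa2, Ncoa3, Ppargc1a and Med1, and shTbl1xr1 4 was the highest of the 8 for all 6 coactivators.

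The members differed most within the shTbl1xr1 group. The median SD of log2 level was 0.44 within shTbl1xr1 and 0.21 within shNC, against 0.41 within shTbl1xr1 and 0.19 within shNC over all tested genes. Library shTbl1xr1 4, which kept the most Tbl1xr1, was the highest of the 8 for 19 of the 35 members, where 17.7% of all tested genes had it highest. Its median log2 difference from the shNC mean was 0.34 for members and 0.00 for all tested genes. The shallow pair lay below the other 6 libraries for 13 members, against 28.2% of all tested genes, and above them for 7 members, against 24.5%. The members below were Nr1i2, Ppara, Rarb, Thra, Esr1, Nr3c1, Nr2c2, Nr6a1, Nr4a1, Ncoa2, Ncoa3, Ppargc1a and Med1, and those above were Nr0b2, Nr1h3, Nr1h2, Pparg, Rxrg, Rara and Nr2f6. These positions depend on the scaling: by library size alone, looked at after the data were seen, the pair lay below for 24 members, against 59.2% of all tested genes, and above for 1 (Nr0b2), against 6.53%. Library shTbl1xr1 4 was then highest for 17 members, against 18.4%. The median log2 difference from the shNC mean was -0.26 for the shallow pair and 0.07 for the deeper pair, against -0.08 for the shallow pair and -0.00 for the deeper pair over all tested genes. The 2 pairs differed from shNC in opposite directions for 20 of the 35 members (57.1%), against 51.7% of all tested genes. Tested against shNC alone, the shallow pair gave 21 members past an edgeR adjusted p of 0.05, where it gave 42.6% of all genes. Of these members 8 were higher and 13 lower, against 21.5% and 21.1% of all genes. The deeper pair alone gave 0 members, where it gave 0.0478% of all genes.

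**Figure D3:**
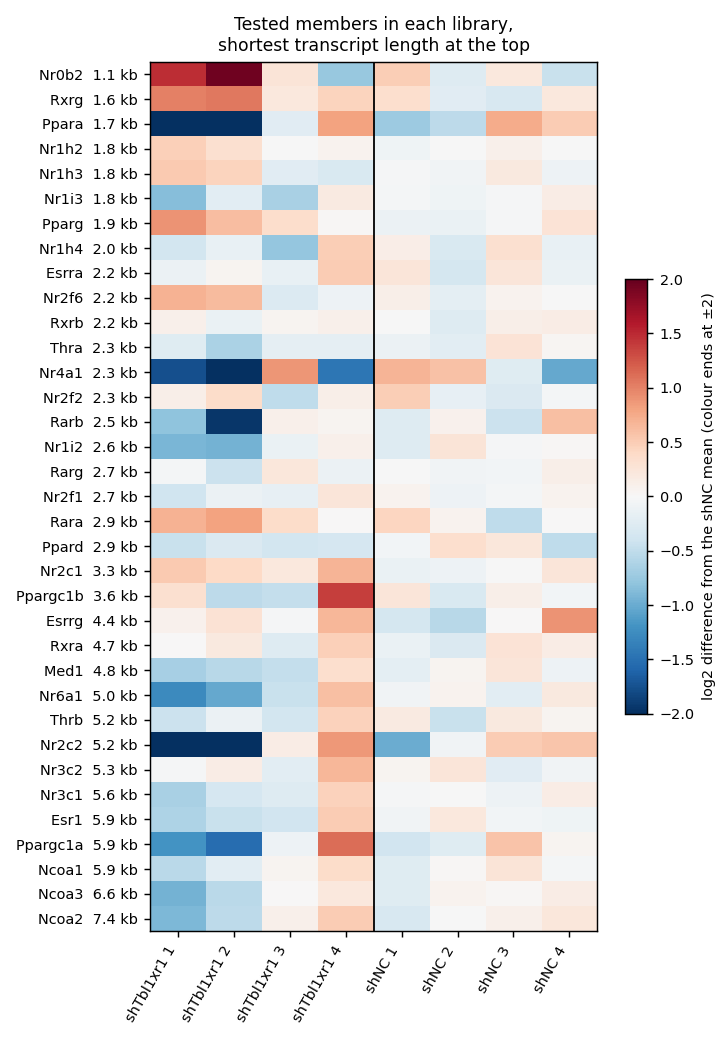
Log2 difference of each library from the shNC mean, in CPM plus 0.5, for the 35 tested members sorted by transcript length, with shTbl1xr1 libraries left of shNC libraries. The shallow pair is lowest for 13 members and shTbl1xr1 4 is highest for 19, and the shNC libraries vary less.

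The differences of both pairs went with transcript length, in opposite directions. Among members the median log2 difference of the shallow pair from shNC was 0.44 for the 8 under 2000 bases. It was -0.17 for the 14 of 2000 to 4000 bases and -0.53 for the 13 over 4000 bases. Over all tested genes the corresponding medians were 0.43, -0.19 and -0.54. For the deeper pair the members' medians were -0.06, 0.04 and 0.11. Across genes Pearson's r between log2 length and the shallow pair's difference was -0.34 over the 35 members and -0.52 over all tested genes. For the deeper pair it was 0.46 over the members and 0.19 over all tested genes, with the opposite sign. Genes of one library share its depth and scaling and are not independent. The shallow pair also differed in depth, in mitochondrial share and in Tbl1xr1 level, and the part of each in these differences was not tested.

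**Figure D4:**
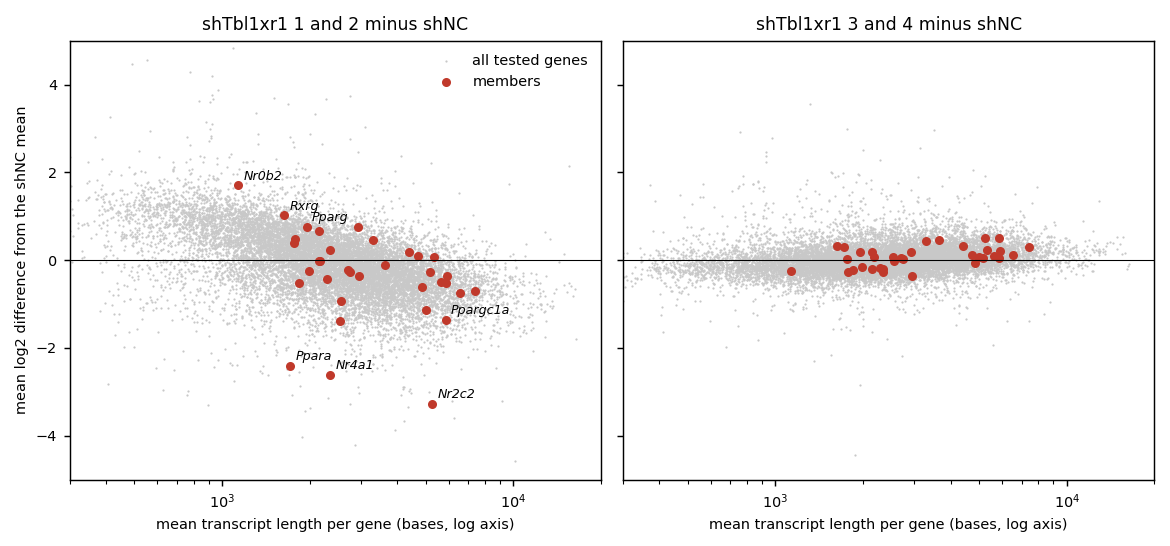
Log2 difference from the shNC mean against transcript length (log axis, bases) for the shallow pair and for the deeper pair, with all tested genes in grey and members in red. In the shallow pair the members' median is 0.44 under 2000 bases and -0.53 over 4000 bases, and the cloud of all tested genes slopes the same way.

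Markers of macrophages, endothelial cells and stellate cells were lower in the shallow pair than in the deeper pair. In whole liver, fewer cells of a type and less RNA per cell cannot be told apart. All 12 macrophage markers had negative log2 fold changes, with a median of -0.43, and their summed level was 340 to 882 CPM in shTbl1xr1, against 658 to 1058 CPM in shNC. All 10 endothelial markers were negative (median -0.32; 190.4 to 381 CPM in shTbl1xr1, against 319 to 370.3 CPM in shNC), and so were 10 of 11 stellate cell markers (median -0.35; 186 to 639 CPM in shTbl1xr1, against 343 to 594 CPM in shNC). None of these markers passed the test, and none of them was at 0 in all libraries. The shallow pair's medians were -1.30 for macrophage, -0.86 for endothelial and -1.47 for stellate cell markers, and the deeper pair's were -0.06, 0.08 and -0.13. For lymphocyte markers the medians were -0.44 in the shallow and -0.13 in the deeper pair, and for bile duct markers -0.09 and 0.51. The last value joins opposite libraries, with bile duct medians of 1.37 in shTbl1xr1 3 and -0.30 in shTbl1xr1 4. Of 11 lymphocyte markers 4 were tested (median -0.49; summed 3.16 to 4.93 CPM in shTbl1xr1, against 3.92 to 6.17 CPM in shNC), and 7 of 8 bile duct markers were tested (median 0.32; 53.1 to 249 CPM in shTbl1xr1, against 42.1 to 128 CPM in shNC). Hepatocyte markers were high in all libraries, from 64963 to 105657 CPM in shTbl1xr1, against 69109 to 85985 CPM in shNC. Of these, 8 of 12 had positive log2 fold changes. Under library size alone 7 were positive and 8 were above the median of all tested genes. Their medians were 0.42 in the shallow and 0.05 in the deeper pair. The part of these cells in the members' values was not tested.

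Other genes of the pathway likewise gave no call. Of 17 further nuclear receptors 8 were tested, 3 positive and 5 negative, and the smallest p was that of the circadian and lipid regulator Rora (log2 fold change -0.40). Of 15 further coactivators 12 were negative, where 6871 of all 13908 tested genes were. Their median was -0.23, with the smallest p for Pprc1, a relative of PGC-1 (-0.53). The median difference of these coactivators from shNC was -0.65 in the shallow pair and 0.0065 in the deeper pair. The 32 further Mediator subunits had a median of -0.03, with the smallest p for Med18 at -0.67. The 10 corepressors had a median of -0.01. Among those, Tbl1x, the X-linked paralogue of Tbl1xr1, was at 52.3, 49.7, 64.1 and 65.9 CPM in shTbl1xr1, against 38.4, 46.9, 44.1 and 42.4 CPM in shNC. All 4 shTbl1xr1 libraries lay above the shNC libraries, and the log2 fold change was 0.44 ± 0.15 (SE, edgeR adjusted p = 0.382). The same held for Hdac3 (log2 fold change 0.44, edgeR adjusted p = 0.383). So the groups did not overlap for 2 of the 10 corepressors, against 7.25% of all tested genes.

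Targets of the receptors were listed from general knowledge, but with earlier results of these data known, and were read in the same fit. Calls among them are therefore not an independent readout. The 13 tested targets of CAR had a median log2 fold change of 0.52 and held the 3 calls among all target lists. The glutathione transferase Gstm3 rose to 954, 1037, 1940.0 and 673 CPM in shTbl1xr1, against 79.7, 95, 96 and 119 CPM in shNC (log2 fold change 3.56 ± 0.35, SE; edgeR adjusted p = 0.0142). The cytochrome Cyp2c55 rose to 55.5, 48.3, 39.4 and 45.1 CPM in shTbl1xr1, against 14.5, 16.8, 11.4 and 20.3 CPM in shNC (1.58 ± 0.20, SE; edgeR adjusted p = 0.0459). The cytochrome Cyp2b9 fell to 0.376, 0.138, 0 and 0.124 CPM in shTbl1xr1, against 18.2, 10.6, 3.88 and 23.4 CPM in shNC (-6.94 ± 0.84, SE; edgeR adjusted p = 0.0427). So calls went both ways within the list, while the receptor Nr1i3 did not pass. With shNC 1, 2 or 4 left out edgeR called 0 genes in all, so none of these 3 calls held then, and with the deeper pair alone Gstm3 passed (adjusted p = 0.0305) and the other two did not. The Gst and Cyp2 families hold near-identical copies, among which the authors' counting may divide fragments.

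For the remaining receptors no target passed by edgeR, and the direction of a list is given only as its count. Library size alone moved the median of all tested genes to -0.27, which lowers the count of positive targets in any list. Counts above that median are therefore given as well. The 7 tested PXR targets had positive log2 fold changes, with a median of 0.66 and the smallest p for Gsta1 (1.72, edgeR adjusted p = 0.180). Under library size alone 6 of 7 were positive and 7 were above the median of all tested genes. The 7 induced targets of the bile acid receptor, Nr0b2 among them, were positive too, also under library size alone, with a median of 0.80. Only Abcb11, Slc51a and Slc51b were positive over each pair alone. Nr0b2 (-0.22) and Fetub (-0.20) were negative over the deeper pair, and Fgf21 (-2.04) and Abcb4 (-0.0015) over the shallow pair. The smallest p was that of the bile acid exporter subunit Slc51a (1.97, and 0.61 over the deeper pair). Its levels were low, at 1.63, 2.21, 0.386 and 0.397 CPM in shTbl1xr1, against 0.136 to 0.365 CPM in shNC. The 3 repressed targets had a median of -0.06 and did not share a direction, with Cyp8b1 at -1.18, Slc10a1 at -0.06 and Cyp7a1 at 0.90. Cyp8b1 was lowest in shTbl1xr1 3, at 0.837 CPM. Of 10 LXR targets, the receptor gene Nr1h3 among them, 7 were positive (median 0.35). Under library size alone 5 were positive and 7 were above the median of all tested genes. The sterol exporter Abcg8 was at 49.9, 57.6, 63.7 and 72.4 CPM in shTbl1xr1, against 31.4, 24.5, 18.8 and 32.9 CPM in shNC, and its log2 fold change of 1.18 ± 0.21 (SE) had an adjusted p of 0.127 by edgeR and 0.000108 by DESeq2. Of 20 PPAR alpha targets 14 were negative and 6 positive (median -0.29). Under library size alone 1 was positive and 3 were above the median of all tested genes. Acadm, a dehydrogenase of fatty acid oxidation, was at 204, 212, 192 and 207 CPM in shTbl1xr1, against 353, 333, 312 and 338 CPM in shNC, with a log2 fold change of -0.71 ± 0.15 (SE) and an adjusted p of 0.196 by edgeR and 1.93e-08 by DESeq2. All 4 shTbl1xr1 libraries lay below the shNC libraries for Acadm, where for Ppara shTbl1xr1 4 was the highest of the 8.

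Targets of the hormone receptors and of the PGC-1 partners gave no call either. Thyroid hormone receptor targets had a median of 0.20 over 6 genes, of which 4 were positive, with Thrsp, a lipogenic gene, at 2.20 (edgeR adjusted p = 0.217). Under library size alone 2 were positive and 4 were above the median of all tested genes. Glucocorticoid receptor targets were negative for 8 of 14 (median -0.15). Under library size alone 3 were positive and 7 were above the median of all tested genes. Their median difference from shNC was -0.84 in the shallow pair and 0.09 in the deeper pair. Tsc22d3, an anti-inflammatory target, was at 46.7 ± 9.74 CPM in shTbl1xr1 and 84.2 ± 7.22 CPM in shNC (log2 fold change -0.85, edgeR adjusted p = 0.208). The 5 tested retinoic acid receptor targets, Rarb among them, had a median of 0.57, and the 5 tested PPAR gamma targets a median of -0.14, with Fabp4 at -0.31. The 10 tested targets of PGC-1 and ERR, Esrra among them, had a median of 0.06 (7 positive), with Idh3a at 0.74. Under library size alone 3 of these were positive and 5 were above the median of all tested genes. The vitamin D receptor target Cyp24a1 had 0 counts in all 8 libraries.

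**Figure D5:**
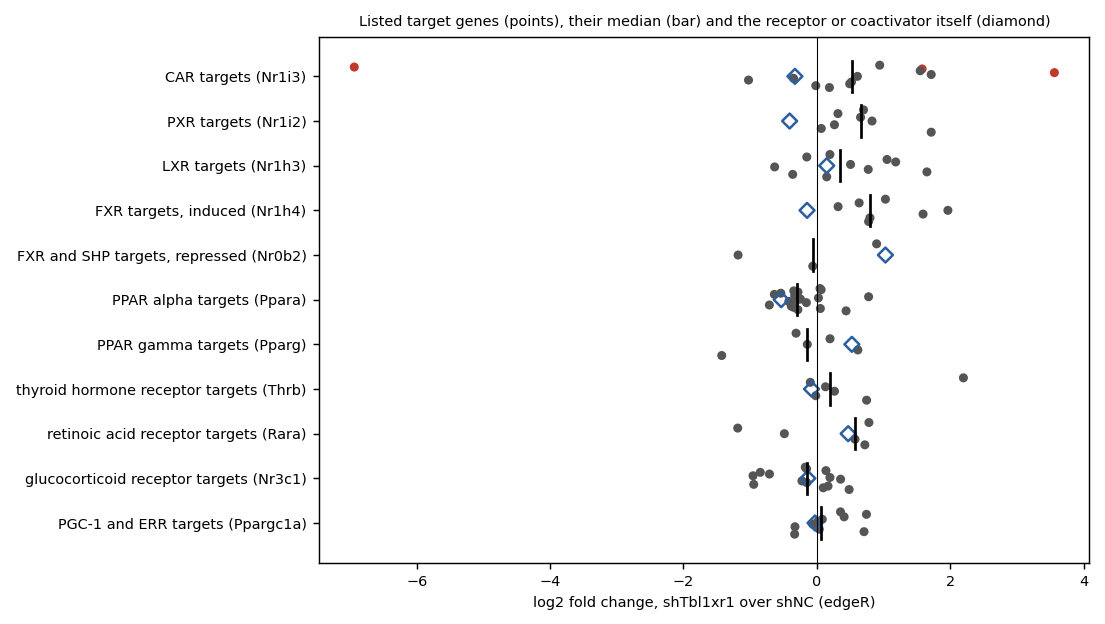
Log2 fold change of shTbl1xr1 over shNC for the tested targets of each receptor (points), with the list's median (bar) and the receptor's own value (diamond). Red marks Gstm3, Cyp2c55 and Cyp2b9, the targets past an edgeR adjusted p of 0.05, and list medians lie from -0.29 for PPAR alpha to 0.80 for the induced targets of the bile acid receptor.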

How the data were processed

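The authors deposited 1 table per library. Per the file headers it holds an expected count per gene, an estimate that need not be whole, the gene's length and effective length, and TPM, which the authors scaled by length and library total. Per the submitters' processing notes the tools were STAR, RSEM and DESeq2 1.30.1 and the build was mm10. Neither strand setting nor options were given in these sources. RSEM divides fragments shared by similar genes among them, so near-identical genes are uncertain.

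Expected counts were rounded. Genes were kept by filterByExpr (13908), scaled by TMM and compared with edgeR 4.0.16 (R 4.3.3) by its robust quasi-likelihood F test. Adjusted p-values (Benjamini-Hochberg, threshold 0.05) cover the whole table. SE was taken from the F statistic. CPM are TMM-scaled. Per-library log2 differences used CPM plus 0.5, and the exact permutation test of Tbl1xr1 used log2 of CPM plus 1 over 70 arrangements. Library totals were 10728583 to 36720879 counts in shTbl1xr1 and 25811763 to 27537235 in shNC, so low values carry more counting error in the shallow pair. The limit that a count of 0 allows is 3 counts and covers counting error only. GENCODE mouse release 21 gave symbols and coordinates, and 55141 identifiers had a symbol.

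Members and lists were chosen with earlier results of these data known. Named in full were members past the threshold, at an unadjusted p under 0.05 or without overlap, and the 3 with the highest TPM. Of each other list, up to 2 genes per direction past the threshold were named, otherwise the 1 with the smallest p. For 1 list that gene is not reported here. Alternatives used DESeq2 1.42.0, limma 3.58.1 and sva 3.50.0. The code was tested on simulated data.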

Additional observations from a re-analysis of the deposited data

Results flagged for a closer look

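Each member was checked in each group for a library whose gap to its nearest neighbour took up nearly the whole range of the 4 libraries. Of 70 such checks, 4 stood out, and chance alone gives about 1 in 20. Esr1 was at 27.4 CPM in shTbl1xr1 4, with the other shTbl1xr1 libraries at 12.4 to 14.6 CPM. In the shNC group Esr1 was at 22.3 CPM in shNC 2, with the others at 18.1 to 18.6 CPM. Med1 was at 28.9 CPM in shTbl1xr1 4, against 14.1 to 16.3 CPM in the other shTbl1xr1 libraries. Nr4a1 was at 18.2 CPM in shTbl1xr1 3, with the others at 0.414 to 3.22 CPM.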

How the results depend on the processing

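The 7 genes called over all tested genes became 4 under library size alone, 13 without a filter on low counts, 32 with limma-voom (30 higher, 2 lower), 42 with 1 surrogate variable, 273 with DESeq2 (234 higher, 39 lower) and 6094 with the shallow pair alone. Leaving out 1 library gave 0 to 34 genes by edgeR, with 34 without shTbl1xr1 4. It gave 0 without shNC 1, 2 or 4, where 844 higher and 372 lower, 631 and 297, and 644 and 292 genes had an unadjusted p under 0.05. The member count was 21 with the shallow pair alone and 0 under every other alternative run. Tbl1xr1 kept its direction, at -2.13 with DESeq2 (adjusted p = 0.00863), -1.67 with 1 surrogate variable (0.00739) and -3.88 with the shallow pair alone (6.62e-05). Directions turned for Nr1h3 (-0.23 with library size alone, -0.18 with 1 surrogate variable, -0.28 with the deeper pair alone, and -0.00018 without shTbl1xr1 1, in a leave-one-out range up to 0.27), for Nr2f6 (-0.10, -0.092 and -0.20 under the first 3 of these) and for Rxra (-0.19 with library size alone, -0.026 without shTbl1xr1 4, in a leave-one-out range up to 0.22). The cause was not tested. Library size alone moved the median of all genes to -0.27 and that of members to -0.31, and turned 9 members. Of 35 members 10 kept 1 direction under all 18 alternatives. With a replicate block 5 genes and 0 members were called, and the log2 fold changes were 0.47 for Nr2c1 and 0.79 for Rxrg. Same-numbered libraries deviated together with correlations of 0.38, -0.07, 0.30 and 0.12, and not every library correlated best with its own number, so the numbers were not taken to pair the samples. Depth limits the shallow pair most, where 3 counts are 0.376 and 0.414 CPM.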
